A study of Drosophila melanogaster with 6 samples.

Results

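The lipid storage genes of the Drosophila melanogaster egg chamber described here number 10: 3 that encode proteins of the lipid droplet surface (Lsd-1, Lsd-2 and Jabba), 4 of lipid synthesis (SREBP, ACC, FASN1 and mdy), 1 lipase gene (bmm) and 2 lipoprotein receptor genes (LpR1 and LpR2). They were chosen by name, each matched 1 row of the deposited table of 17457 features, and all 10 were among the 7855 features with a mean level of at least 1 TPM (a level corrected for transcript length and scaled so that all samples share 1 total) over the 6 samples. The samples were ovaries of 2 kinds of fly, with 3 samples each. In the Sam-S overexpression group, a UASp-Sam-S transgene was driven by nanos-gal4, so the extra S-adenosylmethionine synthetase was made in germline cells only by design of the driver. The control group carried nanos-gal4 too, crossed to flies whose docking site for the construct was empty. Age was not given in the labels. Each numbered batch held 1 sample of either group, and whether the 3 samples of a group came from separate flies was not stated, so p-values measure only the spread between these samples. RNA came from whole ovaries, in which germline and somatic follicle cells are mixed, so fewer cells of a type and less RNA per cell cannot be told apart.

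A lipid droplet is a store of triglycerides and sterol esters under a single layer of phospholipid and coat proteins. In the fly ovary, nurse cells fill with droplets in mid-oogenesis and pass them to the oocyte, and the embryo lives on that store. Part of the lipid is made in the egg chamber from acetyl-CoA, and part is taken up from lipophorin, the lipoprotein that carries lipid through the haemolymph. In Caenorhabditis elegans and mammals, S-adenosylmethionine also supplies the methyl groups for phosphatidylcholine, and its shortage activates SREBP. Lipids were not measured here.

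Sam-S itself, which checks the labels, had 1572, 1443 and 1541 TPM in Sam-S overexpression ovaries, against 496.9, 512.3 and 483.3 TPM in control ovaries. It was higher in 3 of 3 batches, by 1.61 on the log2 scale (limma adjusted p = 2.79e-06). Germline identity was plain in all samples. The 7 germline marker genes summed to between 2487 and 2527 TPM in Sam-S overexpression ovaries and between 2414 and 2521 TPM in control ovaries. Of the 7, 2 (osk and aub) were higher in Sam-S overexpression ovaries without overlap, as were 6.25% of all features. Their log2 differences were 0.13 and 0.18 (limma adjusted p = 0.58 and 0.55). The other germline markers overlapped between the groups and had negative log2 differences. The 6 haemocyte genes summed to at most 0.54 TPM and the 2 spermatheca genes to at most 1.74 TPM in any sample, and the 8 muscle genes to between 147.9 and 221.2 TPM in Sam-S overexpression ovaries and between 149.0 and 203.7 TPM in control ovaries. None of the marker genes that passed the filter changed at the adjusted threshold, but no haemocyte or spermatheca gene passed it. Depth is unknown because TPM does not keep it.

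None of the 10 genes changed at an adjusted p under 0.05 (limma on log2(TPM + 1), adjusted over all 7855 features), where 0.280% of all features did. At an unadjusted p under 0.05 there was 1 of 10, Lsd-1, against 6.58% of all features. The same gene was the single one whose 3 Sam-S overexpression values all lay above the 3 control values, a pattern that 6.25% of all features showed. The median log2 fold change of the 10 genes was 0.02 (-0.01 to 0.04 over the alternatives), beside -0.01 for all features. Summed, the 10 genes held 1814 ± 17.5 TPM in Sam-S overexpression ovaries and 1909 ± 84.3 TPM in control ovaries (SD, n = 3 each).

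**Figure D1:**
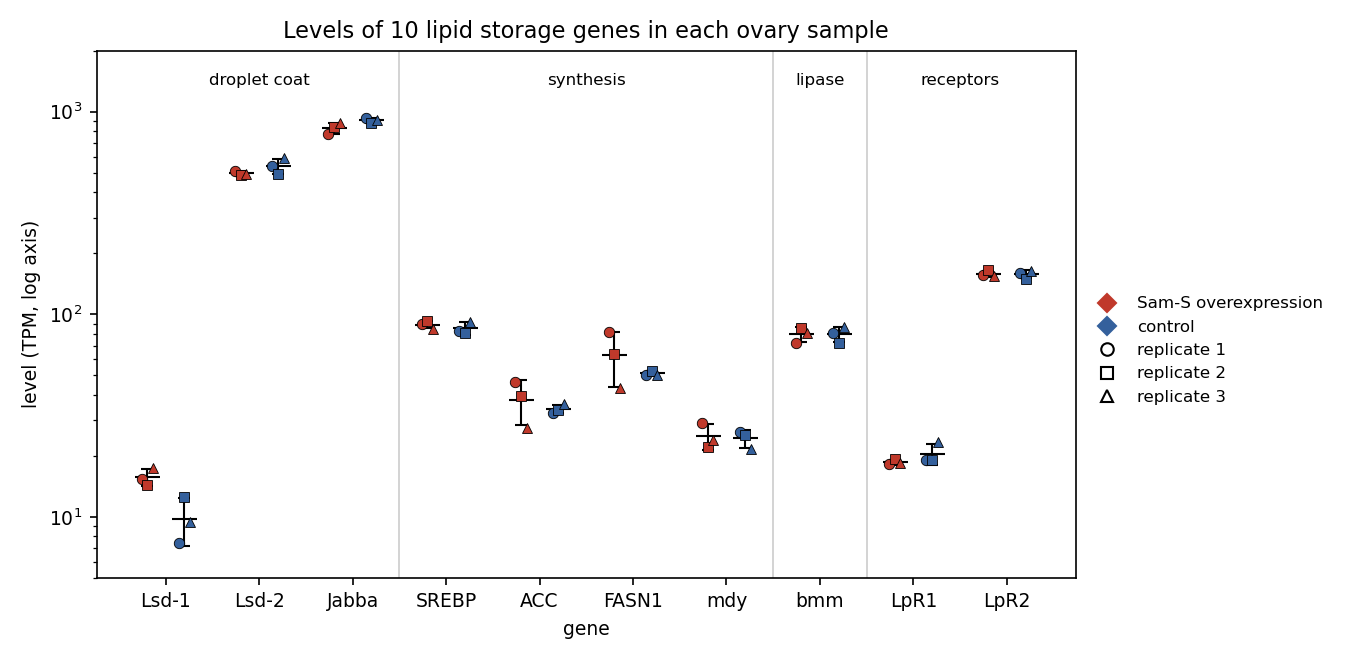
Level of each gene in TPM (log axis) in the 3 Sam-S overexpression samples (red) and the 3 control samples (blue), with replicates by symbol and bars for the mean ± SD. Jabba and Lsd-2 lie above all others, and Lsd-1, the lowest on average, is the gene whose groups do not overlap.

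Levels differed widely between the genes. Jabba averaged 868.4 TPM over the 6 samples, above 98.0% of the features tested, and Lsd-2 averaged 518.4 TPM. LpR2 followed at 157.9 TPM. The ranges of these 3 did not meet one another or that of the next gene. Below them came SREBP at 87.0, bmm at 79.7, FASN1 at 56.9, ACC at 35.9, mdy at 24.7 and LpR1 at 19.5 TPM, and each of these overlapped its neighbour in the order. Lsd-1 was lowest at 12.8 TPM, and its highest sample (17.41 TPM) lay just under the lowest of LpR1 (18.16 TPM). A level per transcript length can be compared between genes, but how the authors treated isoforms of different length is not given in the sources used here.

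The coat genes lie on 3 chromosomes. Lsd-1 and Lsd-2 encode the fly perilipins, proteins that cover the droplet and govern access of lipases to it. Lsd-1 (FBgn0039114) lies on 3R, 23763857 to 23766662, plus strand, and Lsd-2 (FBgn0030608) on X, 15069127 to 15076220, minus strand. Jabba (FBgn0259682; 2R, 18757074 to 18761082, minus strand) encodes the droplet protein that holds histones on the droplets of the oocyte and embryo. Coordinates are those of the deposited table, and for all 10 genes they equal those of the Ensembl annotation of the Release 6 assembly (BDGP6).

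Lsd-1 was the gene with the largest difference. It had 15.45, 14.37 and 17.41 TPM in Sam-S overexpression replicates 1 to 3, against 7.39, 12.58 and 9.40 TPM in control replicates 1 to 3. All Sam-S overexpression values lay above all control values, with control replicate 2 the nearest to them. The log2 fold change of Lsd-1 was 0.66 (SE 0.17, 95% interval 0.27 to 1.05, limma adjusted p = 0.37), and Lsd-1 was higher in 3 of 3 batches, by 0.97, 0.18 and 0.82. Without control replicate 1 it was 0.49 and without control replicate 2 it was 0.84, and adjusted p for Lsd-1 ran from 0.11 to 1.00 over the 13 alternatives. An exact two-sided permutation test on Lsd-1 alone gave p = 0.1, the smallest it can give with 3 samples against 3. In the authors' deposited table Lsd-1 stands at 0.72 on the log2 scale with an FDR of 0.0295, so that it is called there and not in the test used here. It was the 1 of the 10 genes with an FDR under 0.05 in the authors' deposited table, where 0.453% of all 17457 features were called higher. Of the 7855 features tested here, 66 were called higher there and 97 in either direction.

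Both tests rest on the same 6 samples, so the call in the authors' deposited table is not independent of the values above. Lsd-1 also overlaps in part with CG10214, a gene on the opposite strand that was more abundant. CG10214 had 69.07, 71.65 and 78.08 TPM in Sam-S overexpression ovaries, against 70.98, 72.48 and 79.70 TPM in control ovaries. The libraries were stranded, but whether counting used the strand is not given in the sources used here.

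Perilipin 1 of flies is abundant in fat body, so markers of tissues that can cling to a dissected ovary were read in the same samples. The fat body list, 7 genes with Mtp among them, summed to between 52.92 and 60.10 TPM in Sam-S overexpression ovaries and between 55.85 and 61.07 TPM in control ovaries, and 3 of the 7 passed the filter. Most of that sum was Mtp, a gene of lipoprotein assembly, at 48.12 to 50.68 TPM in Sam-S overexpression ovaries and 50.97 to 54.96 TPM in control ovaries. The other genes of the list that were above 0 in every sample had higher means in Sam-S overexpression ovaries. Obp99b had 1.49, 2.27 and 1.85 TPM in Sam-S overexpression ovaries, against 1.48, 1.51 and 0.62 TPM in control ovaries. The gene fon had 0.69, 0.69 and 1.75 TPM in Sam-S overexpression ovaries, against 1.18, 0.74 and 0.29 TPM in control ovaries. Apoltp averaged 0.15 TPM in Sam-S overexpression ovaries and 0.10 TPM in control ovaries, and fon and Apoltp were under the filter and not tested. The larval serum protein gene Lsp2 was at 0 in 5 of 6 samples, and so was the fat body gene to. The gene apolpp, which encodes the lipophorin apoprotein, had 2.49, 2.35 and 6.04 TPM in Sam-S overexpression ovaries, against 3.29, 2.52 and 1.96 TPM in control ovaries. Sam-S overexpression replicate 3 was the highest of the 6 samples for apolpp, fon and Lsd-1, while the other 2 samples of that group were within the control range for apolpp. The oenocyte list of 4 genes summed to between 32.18 and 47.10 TPM in Sam-S overexpression ovaries and between 21.71 and 37.25 TPM in control ovaries. Its main gene Cyp4g1, a cytochrome P450 of hydrocarbon synthesis, had 34.91, 29.38 and 42.60 TPM in Sam-S overexpression ovaries, against 24.99, 33.26 and 20.07 TPM in control ovaries. The part of these tissues in the Lsd-1 result was not tested.

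Lsd-2 had 511.24, 484.40 and 494.79 TPM in Sam-S overexpression ovaries, against 537.86, 494.44 and 587.80 TPM in control ovaries. The groups overlapped at control replicate 2. The log2 fold change of Lsd-2 was -0.12 (SE 0.06, 95% interval -0.27 to 0.03, limma adjusted p = 0.87), and it was -0.05 without control replicate 3. Jabba had 774.27, 835.97 and 880.35 TPM in Sam-S overexpression ovaries, against 931.90, 876.36 and 911.46 TPM in control ovaries. These groups met by a narrow margin, since Sam-S overexpression replicate 3 exceeded control replicate 2. The log2 fold change of Jabba was -0.13 (SE 0.06, 95% interval -0.26 to 0.0014, limma adjusted p = 0.77), and it was -0.08 without Sam-S overexpression replicate 1. Lsd-2 and Jabba were lower in 3 of 3 batches each, but neither passed the test, and the lower ends of their intervals correspond to levels of 0.832 and 0.836 times control on the log2(TPM + 1) scale.

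The ratio of Lsd-2 to Lsd-1 reuses the values of both genes given above, so it is not independent of them. It was 33.1, 33.7 and 28.4 in Sam-S overexpression ovaries, against 72.8, 39.3 and 62.5 in control ovaries. The groups did not overlap, and an exact two-sided permutation test on the log2 ratio gave p = 0.1, which became 0.2 after adjustment over the 4 ratios compared here. The mean log2 ratio differed by -0.83, and by -0.65 without control replicate 1.

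**Figure D2:**
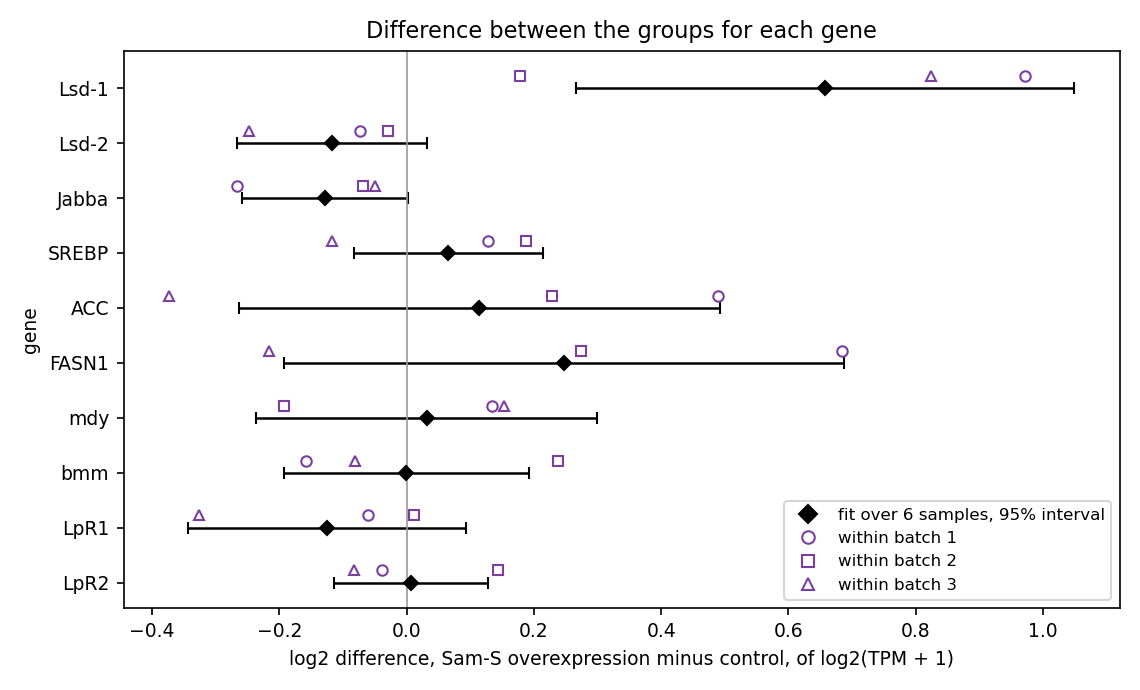
Difference of log2(TPM + 1), Sam-S overexpression minus control, for each gene (diamonds, with 95% intervals from limma over 6 samples) and within each batch (open symbols). The interval of Lsd-1 lies above 0, between 0.27 and 1.05, and the other 9 include 0. Every gene except Lsd-1, Lsd-2 and Jabba has batch values on both sides of 0.

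SREBP is the transcription factor that switches on fatty acid synthesis genes, with ACC and FASN1 among its known targets in flies. ACC makes malonyl-CoA, and FASN1, the fatty acid synthase, builds palmitate from it. SREBP (FBgn0261283; 3L, 19793935 to 19798979, plus strand) had 89.93, 92.23 and 84.85 TPM in Sam-S overexpression ovaries, against 82.26, 80.89 and 92.13 TPM in control ovaries. The groups of SREBP overlapped through control replicate 3, which lay within the Sam-S overexpression range. Control replicates 1 and 2 lay below that range. The log2 fold change of SREBP was 0.07 (95% interval -0.08 to 0.21, limma adjusted p = 0.95), and it ran from 0.03 without control replicate 2 to 0.12 without control replicate 3.

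FASN1 and ACC were the least even genes within the Sam-S overexpression group. FASN1 (FBgn0283427; 2L, 3056598 to 3068177, plus strand) had 81.42, 63.71 and 43.21 TPM in Sam-S overexpression ovaries, against 50.31, 52.49 and 50.39 TPM in control ovaries. ACC (FBgn0033246; 2R, 7974115 to 7991862, minus strand) had 46.16, 39.62 and 27.47 TPM in Sam-S overexpression ovaries, against 32.61, 33.68 and 35.88 TPM in control ovaries. For both genes Sam-S overexpression replicates 1 and 2 lay above every control sample and replicate 3 lay below every control sample. The coefficient of variation of FASN1 was 30.5% in Sam-S overexpression ovaries and 2.42% in control ovaries, and that of ACC was 25.1% in Sam-S overexpression ovaries and 4.90% in control ovaries (n = 3 each). The difference in spread was not tested.

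Neither gene passed the test. The log2 fold change of FASN1 was 0.25 (SE 0.19, 95% interval -0.19 to 0.69, limma adjusted p = 0.93), with 0.68, 0.27 and -0.22 in batches 1 to 3. Without Sam-S overexpression replicate 3 it was 0.49, and without replicate 1 of that group it was 0.039. The log2 fold change of ACC was 0.11 (SE 0.16, 95% interval -0.26 to 0.49, limma adjusted p = 0.95), with 0.49, 0.23 and -0.37 in batches 1 to 3. It turned to -0.04 without Sam-S overexpression replicate 1 and was 0.32 without replicate 3 of that group. A change of FASN1 up to 1.61-fold thus lies within its interval. The ratio of FASN1 to ACC was 1.76, 1.61 and 1.57 in Sam-S overexpression ovaries, against 1.54, 1.56 and 1.40 in control ovaries. These ratios did not overlap (exact permutation test, two-sided, p = 0.1), with an adjusted p of 0.2 over the 4 ratios.

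Yolk protein, vitelline membrane and chorion genes were uneven among the same samples. The 3 yolk protein genes summed to 7444, 6545 and 5039 TPM in Sam-S overexpression ovaries, against 4905, 5684 and 4961 TPM in control ovaries. Yp1 and Yp2 made up most of that sum. Both were higher in 3 of 3 batches, though their groups overlapped (limma adjusted p = 0.78 and 0.62). Yp3 had 697.3, 487.0 and 538.4 TPM in Sam-S overexpression ovaries, against 727.6, 736.6 and 685.5 TPM in control ovaries. It was lower in 3 of 3 batches, with replicate 2 lowest (limma adjusted p = 0.58, and 0.018 at its lowest over the 13 alternatives). The 5 vitelline membrane genes, made by follicle cells in mid-oogenesis, summed to 18471, 12171 and 10048 TPM in Sam-S overexpression ovaries, against 13006, 15506 and 12331 TPM in control ovaries. The 6 chorion genes, made by late follicle cells, summed to 24655, 19053 and 17107 TPM in Sam-S overexpression ovaries, against 23596, 26113 and 21709 TPM in control ovaries. Sam-S overexpression replicate 1 was highest and replicate 3 lowest within that group for FASN1, ACC and the yolk protein, vitelline membrane and chorion sums. Not every summed gene kept that order. The chorion genes Cp36 and Cp38 were lowest in replicate 2, at 2179 and 2636 TPM, as was Yp3, while the other summed genes kept it. The part of egg chamber stage in the spread of FASN1 and ACC was not tested.

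**Figure D3:**
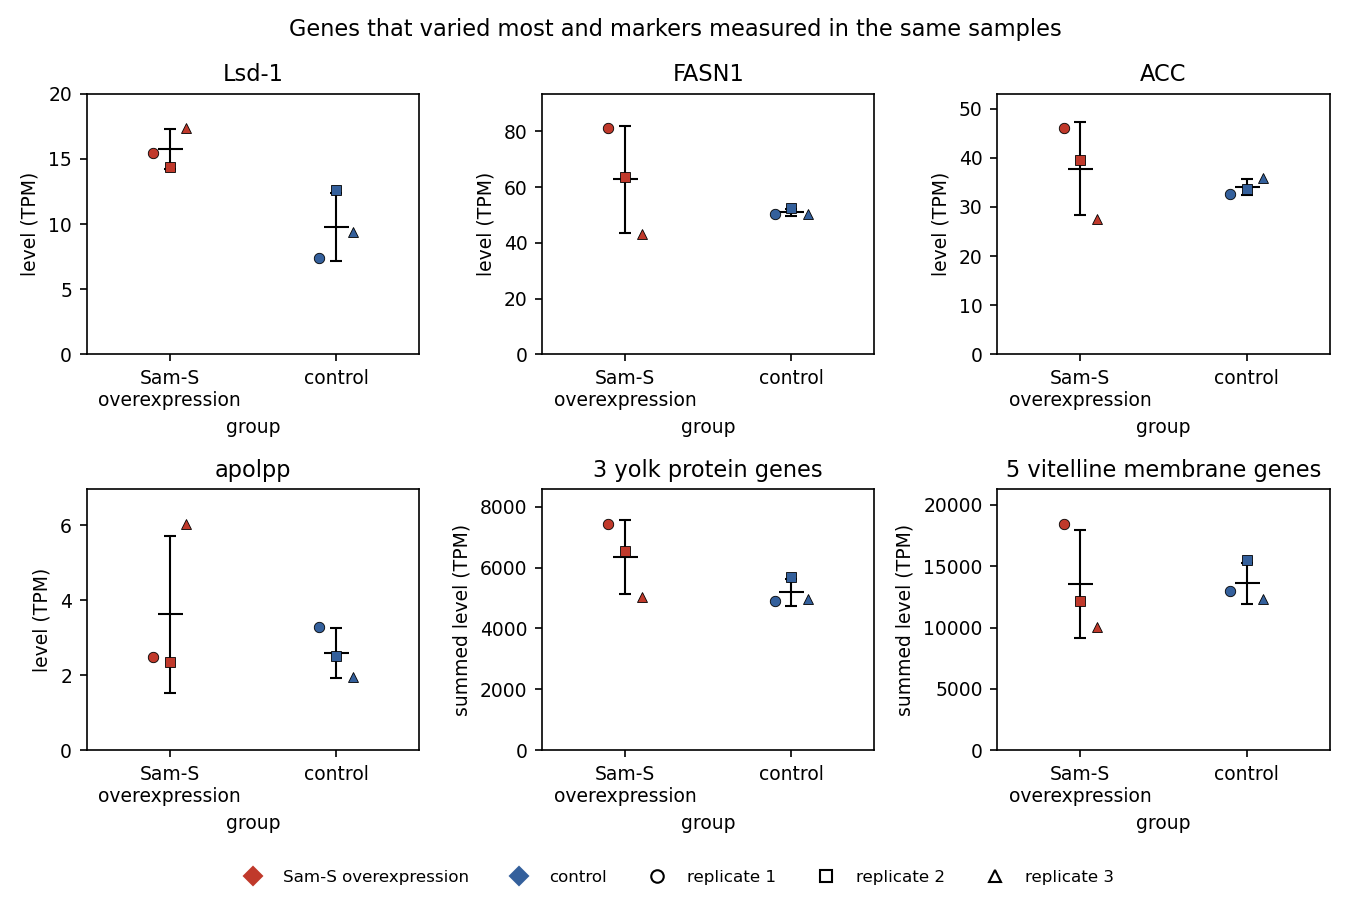
Levels in TPM of Lsd-1, FASN1, ACC and apolpp, and summed TPM of 3 yolk protein and 5 vitelline membrane genes, per sample with the mean ± SD of 3. Sam-S overexpression replicate 1 (circle) is the highest and replicate 3 (triangle) the lowest of its group for FASN1, ACC and both sums, while Lsd-1 and apolpp are highest in replicate 3.

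The gene mdy encodes a diacylglycerol acyltransferase, which makes the triglyceride of the droplet and is needed for egg chambers to pass mid-oogenesis, and bmm encodes brummer, the triglyceride lipase that works against it. mdy (FBgn0004797; 2L, 16816660 to 16826964, plus strand) had 28.99, 22.09 and 24.07 TPM in Sam-S overexpression ovaries, against 26.34, 25.39 and 21.54 TPM in control ovaries. bmm (FBgn0036449; 3L, 14776496 to 14786412, minus strand) had 72.49, 85.15 and 81.30 TPM in Sam-S overexpression ovaries, against 81.05, 72.04 and 86.06 TPM in control ovaries. Both genes overlapped between the groups.

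The log2 fold change of mdy was 0.03 (95% interval -0.24 to 0.30, limma adjusted p = 0.98) and turned to -0.07 without Sam-S overexpression replicate 1. That of bmm was -0.00064 (95% interval -0.19 to 0.19, limma adjusted p = 1.00), and its sign changed in 5 of the 13 alternatives. The ratio of mdy to bmm was 0.40, 0.26 and 0.30 in Sam-S overexpression ovaries, against 0.33, 0.35 and 0.25 in control ovaries (exact permutation test, two-sided, p = 0.9, adjusted p = 0.9). The level of mdy carries a further limit, since the gene Cse1 lies within its locus on the opposite strand, at 264.4 to 283.3 TPM in Sam-S overexpression ovaries and 269.7 to 287.5 TPM in control ovaries. Nup44A lies within ACC in the same way, at 67.67 to 70.52 TPM in Sam-S overexpression ovaries and 70.02 to 74.30 TPM in control ovaries.

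LpR1 and LpR2 encode receptors of the LDL receptor family that bring neutral lipid from lipophorin into egg chambers and other tissues. They are neighbours on 3R, both on the minus strand, with LpR2 (FBgn0051092) at 25698727 to 25740465 and LpR1 (FBgn0066101) at 25741348 to 25763105, and 882 bases lie between them. The annotation gives 9 transcripts for LpR2 and 10 for LpR1. As they are related genes, reads that match both may have been split or dropped, in a manner not given in the sources used here.

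LpR2 had 155.59, 164.96 and 154.06 TPM in Sam-S overexpression ovaries, against 159.92, 149.31 and 163.24 TPM in control ovaries. It was the steadiest of the 10 genes over the 6 samples, with an SD of 0.05 on the log2(TPM + 1) scale. Its log2 fold change was 0.01 (95% interval -0.11 to 0.13, limma adjusted p = 0.995), so that changes beyond 0.924 to 1.09 times control lay outside the interval. LpR1 had 18.16, 19.23 and 18.41 TPM in Sam-S overexpression ovaries, against 18.98, 19.07 and 23.33 TPM in control ovaries. The groups of LpR1 overlapped, with control replicate 3 apart from the other 5 samples. Its log2 fold change was -0.12 (95% interval -0.34 to 0.09, limma adjusted p = 0.93), and it was -0.03 without control replicate 3. The ratio of LpR2 to LpR1 was 8.57, 8.58 and 8.37 in Sam-S overexpression ovaries, against 8.43, 7.83 and 6.997 in control ovaries, and the exact permutation test (two-sided) gave p = 0.2, adjusted to 0.27.

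**Figure D4:**
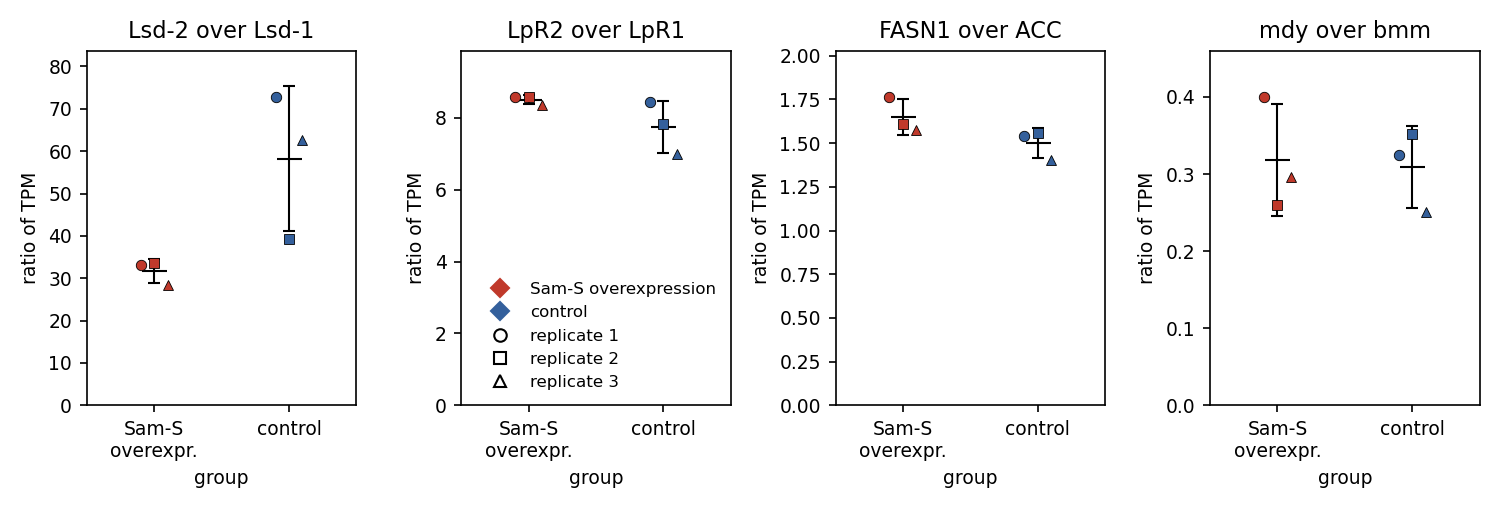
Ratios of TPM within each sample for 4 pairs of genes, with the mean ± SD of 3 samples a group. Only the ratios of Lsd-2 to Lsd-1 and of FASN1 to ACC separate the groups, each with an exact p of 0.1, the smallest possible.

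The rest of the pathway was read from 5 lists holding 64 genes, of which 56 passed the filter. None of the 56 changed in limma (adjusted p), and 6 had an unadjusted p under 0.05, 1 higher and 5 lower, while 6.58% of all features had one. Of the 64, 1 gene, sug, had an FDR under 0.05 in the authors' deposited table. There 0.453% of all 17457 features, and 66 of the 7855 tested here, were called higher. In the list of droplet coat, biogenesis and transport, 9 of 10 genes were tested, with a median log2 fold change of -0.03. Seipin, which shapes forming droplets, was at -0.18 on that scale (limma adjusted p = 0.77), and His2Av, a histone stored on droplets, at -0.07 (limma adjusted p = 0.95). The gene halo, which acts in droplet transport in the embryo, was listed at 0 in 5 of 6 samples. In the list of glycerolipid synthesis, the acyltransferase genes Agpat4 and Agpat2 had the largest values among 8 tested, 0.08 and -0.06 (limma adjusted p = 0.93 and 0.95). Dgat2, related in function to mdy, stayed under 1 TPM in every sample.

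Of the 17 tested genes for fatty acid synthesis and its regulators, 12 had a positive log2 fold change, and the median was 0.02. Of all 7855 features, 3459 had a positive one. The gene sug encodes sugarbabe, a transcription factor induced by dietary sugar that promotes lipid synthesis genes. It had 1.69, 1.93 and 2.30 TPM in Sam-S overexpression ovaries, against 0.65, 0.49 and 0.92 TPM in control ovaries. The groups did not overlap, and sug passed the filter only through its level in Sam-S overexpression ovaries. Its log2 fold change was 0.82 (SE 0.19, limma adjusted p = 0.29), whereas the authors' deposited table puts sug at 1.47 on the log2 scale, with an FDR of 0.00047. Fatp3, of the fatty acid transporter family, was at -0.22 (log2 fold change, limma adjusted p = 0.69).

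Lipolysis and fatty acid oxidation was the pathway list with the largest share of tested genes on 1 side of 0. Of 13 tested genes, 11 had a negative log2 fold change, beside 56.0% of all features. The median was -0.09, nearer to 0 than the 0.14 of lipoproteins and their receptors. In 7 of the 13 the 3 Sam-S overexpression values lay below the 3 control values, as in 5.60% of all features. A lower level with an unadjusted limma p under 0.05 was found for 4 of the 13, and for 233 of all 7855 features. None of the 13 passed the adjusted test. Mcad, the medium-chain acyl-CoA dehydrogenase, had 269.15, 257.19 and 260.76 TPM in Sam-S overexpression ovaries, against 307.25, 305.66 and 303.52 TPM in control ovaries. Its log2 fold change was -0.22 (SE 0.04, 95% interval -0.31 to -0.13, limma adjusted p = 0.12). The thiolase gene yip2 had 197.34, 205.95 and 208.33 TPM in Sam-S overexpression ovaries, against 229.65, 227.11 and 227.49 TPM in control ovaries, a difference of -0.16 on the log2 scale (limma adjusted p = 0.37). The count of 11 held under every alternative, with a median between -0.10 and -0.07, while the median of all features ran from -0.03 to 0.01. These genes were read in the same 6 libraries and are not independent of one another. The list was chosen with earlier results of these data known, so its counts beside the shares of all features are no test of it.

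Among 9 tested genes for lipoproteins and their receptors the median log2 fold change was 0.14, with 7 positive and 2 negative. Of all 7855 features, 3459 were positive. Without Sam-S overexpression replicate 1 the median of the list was 0.02, with 4 negative. LRP1, a large receptor of the same family as LpR1 and LpR2, had 9.94, 9.83 and 8.91 TPM in Sam-S overexpression ovaries, against 7.64, 8.10 and 8.86 TPM in control ovaries. The groups were apart by 0.05 TPM, and the log2 fold change of LRP1 was 0.20 (limma adjusted p = 0.85). That of apolpp was 0.29 (limma adjusted p = 0.95). The yolk protein receptor gene yl was at 0.05 (log2 fold change, limma adjusted p = 0.96).

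**Figure D5:**
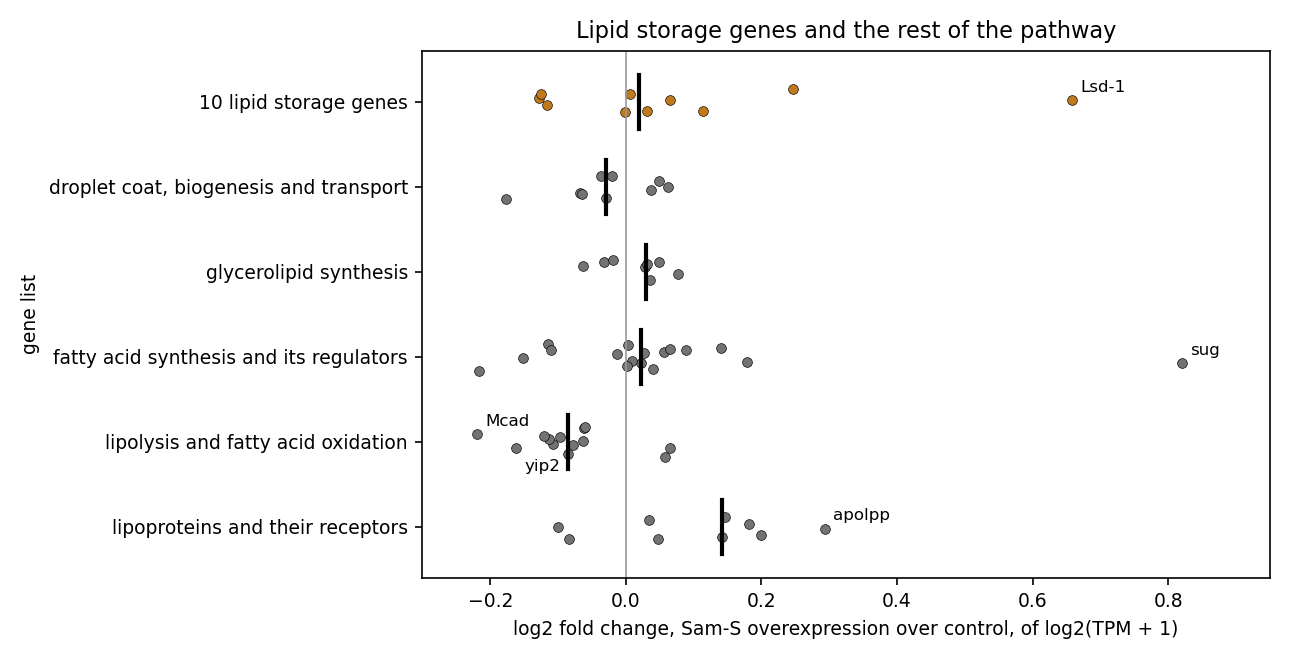
Log2 fold change of log2(TPM + 1), Sam-S overexpression over control, for each tested gene of the 10 lipid storage genes and of 5 pathway lists, with a black bar at each median. Lsd-1 (0.66) and sug (0.82) stand to the right. Of the genes of lipolysis and fatty acid oxidation, 11 of 13 lie left of 0, beside 56.0% of all features.

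Lsd-1 varied most of the 10 genes over the 6 samples, with an SD of 0.43 on the log2(TPM + 1) scale. The 3 tested features nearest to it in pattern were snoRNA:Psi28S-612, xmas-1 and CG5174. Likeness was the root mean square difference of log2(TPM + 1), each centred on its mean over the 6 samples, and it was 0.12, 0.15 and 0.15, beside a median of 0.42 for all features. The 3 were picked as the nearest, so values below that median follow from the choice. CG5174 had 248.15, 244.27 and 238.54 TPM in Sam-S overexpression ovaries, against 148.74, 208.10 and 140.05 TPM in control ovaries.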

How the data were processed

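RNA was measured in 6 ovary samples by stranded polyA sequencing (Trizol extraction, TruSeq kit), per the labels' protocols. STAR is named in the submitters' processing notes, with no version; counting, genome build and annotation are not given in the sources used here. The deposited values are TPM, computed by the authors with 1 column per sample, per the file headers. The authors' deposited table also holds their log2 fold change, p-value and FDR. Depth is unknown, so no counting interval was computed.

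The 10 genes and all lists were chosen with earlier results of these data known. The 7855 features averaging 1 TPM or more were tested on log2(TPM + 1) with limma 3.58.1 in R 4.3.3 (lmFit, eBayes with trend, group term only); this scale understates changes of low genes. Its p-values are two-sided, with Benjamini-Hochberg adjustment over all features tested and a threshold of 0.05, and the procedure was tested on simulated data. Ratios were compared by exact permutation tests (scipy 1.17.1), which cannot go below 0.1. List genes were matched by symbol, or by gene ID for 12 of them; 1 (magro) was not matched and was left out. Genes named were the 10, Sam-S, the 2 largest absolute changes of each list, the marker lists by their sums, and the 3 features most like the most variable of the 10. CG10214, Cse1, Nup44A, Cyp4g1, Mtp, Obp99b, fon, Apoltp, to and Lsp2 were chosen after their values were seen. So were osk, aub, Yp1, Yp2, Yp3, Cp36, Cp38, halo, Dgat2, yl and the summed markers singled out by sample.

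The labels give each sample a batch number, equal to its replicate number, and each batch holds 1 sample of either group, so the pairing comes from that label; what was shared within a batch is not stated. Deviations from the group means correlated, across features, by -0.06, -0.06 and 0.21 between the samples of batches 1, 2 and 3, and by up to 0.26 between samples of different batches (Sam-S overexpression replicate 1 with control replicate 2), so the values themselves do not show the pairing. The alternatives tried were a pseudocount of 0.1, no filter, a mean TPM of at least 5, trimmed mean scaling, quantile normalization, the batch as a block, no mean-variance trend, and omission of every sample, 1 at a time.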

Additional observations from a re-analysis of the deposited data

How the results depend on the processing

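None of the 10 genes and none of the other pathway genes tested changed under any of the 13 alternatives. The count of changed features was 22 as reported, 13 with no filter on low values, and from 11 to 27 when 1 sample was left out, with 11 without control replicate 1 and 14 without control replicate 3. The replicate block, with the batch number as the pair, gave 16 changed features and altered no call among the 10 genes. Of 130 log2 fold changes of the 10 genes under the alternatives, 10 had the opposite sign, in bmm, mdy, ACC and LpR2. That of bmm was 0.0029 with trimmed mean scaling and 0.019 with quantile normalization. When 1 sample was left out, the value ran from -0.071 to 0.065 for bmm, from -0.075 to 0.11 for mdy, from -0.043 to 0.32 for ACC and from -0.031 to 0.033 for LpR2. The difference in the log2 ratio of mdy to bmm ran from -0.14 to 0.17. The other 3 ratios kept their direction, and with batches as pairs each had an exact permutation p of 0.25, the smallest that 3 pairs allow. What caused these shifts was not tested. TPM carries no depth, so the counting error of Lsd-1 and sug is unknown.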
